A study of Mus musculus with 18 samples.

Results

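The genes described here build the peroxisome and carry out its lipid chemistry. The list held 31 genes, chosen by name: 12 peroxins, the Pex genes that assemble the organelle, and 19 genes for peroxisomal lipid enzymes, carriers and catalase. All 31 names were found among the gene names of the array, and 45 of its 41174 probes served for them. After a filter on dim probes, 30 of the 31 could be tested among 19217 genes in all, 12 of them peroxins and 18 of them lipid genes. The remaining gene was Acox2, described below. The arrays measured RNA of C57BL/6 male mice, described as young adults, with no genetic change and no treatment. Fat came from 3 depots: interscapular brown fat, inguinal (subcutaneous) white fat and epididymal (visceral) white fat. Each depot was digested with collagenase and spun into floating adipocytes and a pelleted stromal vascular fraction (SVF), which holds progenitors, endothelial cells and immune cells. The 6 groups of 3 arrays are biological triplicates per the series' design text, and the labels do not say how many mice stand behind an array.

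Peroxisomes are single-membrane organelles that take up finished proteins from the cytosol. Peroxins set up the membrane, carry cargo through it and recycle the import receptor. Inside, an oxidase begins each round of beta-oxidation by passing electrons to oxygen, which leaves hydrogen peroxide for catalase, and the shortened fatty acids leave as carnitine esters for the mitochondria. The organelle also shortens very long and branched chains, oxidises phytanic acid and starts the synthesis of ether lipids. Brown adipocytes are known for many small peroxisomes beside their mitochondria.

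The 75th percentile of processed signal, to which every level below is scaled, ran from 338 to 1257 over the arrays, and 49.6% to 87.9% of spots were well above background. The number of arrays, 3 a group, limits the precision of every value. Levels are log2 units above the 75th percentile of the array, and a difference is between group means of such levels with its standard error from the fit over all 18 arrays. The labels of the fractions were borne out by 9 adipocyte markers: their summed signal, in multiples of the 75th percentile, was 1213 to 3051 in adipocyte arrays, against 32.8 to 265 in SVF arrays other than brown SVF replicate 2, which reached 1039. Adipoq, the adipocyte hormone adiponectin, stood at a level of 7.16 on that array, against 3.15 and 4.43 on the other brown SVF arrays. The 10 macrophage markers summed to 106 to 286 in SVF arrays and 7.76 to 278 in adipocyte arrays. The brown adipocyte arrays stood at 7.76, 49.3 and 15.0 and inguinal adipocyte replicate 3 at 38.1, and the other adipocyte arrays at 80.7 or more. In inguinal fat stromal markers did not separate the fractions on every array. Macrophage sums there were 278, 196 and 38.1 in adipocytes against 111, 197 and 200 in SVF. Sums of 10 progenitor and fibroblast markers were 383, 265 and 96.0 against 821, 732 and 357. Sums of 8 endothelial markers overlapped between fractions in every depot. They were 175 to 273 in brown adipocytes against 176 to 413 in brown SVF. The inguinal sums were 124 to 155 against 84.5 to 159, the epididymal 146 to 188 against 136 to 203. Sums of 6 mural (vessel wall) markers were 38.5 to 50.1 against 232 to 262 in brown fat. In inguinal fat they were 97.1 to 142 against 38.3 to 99.3, in epididymal 75.7 to 182 against 74.3 to 87.9. The 8 brown adipocyte markers summed to 132 in epididymal adipocyte replicate 3, against 11.7 and 9.02 in the other epididymal adipocyte arrays. The sum of 7 mesothelial markers was 132 in inguinal SVF replicate 1, against 0.327 and 0.208 in the other inguinal SVF arrays. In inguinal SVF 7 T and B cell markers summed to 2.52, 21.3 and 143, and in inguinal adipocytes to 33.9, 27.4 and 1.07. The array of inguinal adipocyte replicate 3 was the highest of its group for 30 of 30 tested peroxisomal genes, by a median of 0.98 over the other pair. Brown SVF replicate 2 was highest of its group for 26 of 30, by a median of 0.69. The heat map of levels over the arrays shows both columns. The part of these markers and arrays in the results was not tested. Some results that move without one of these arrays are given with and without it. Not every gene that lost its call in such a fit is named.

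**Figure D1:**
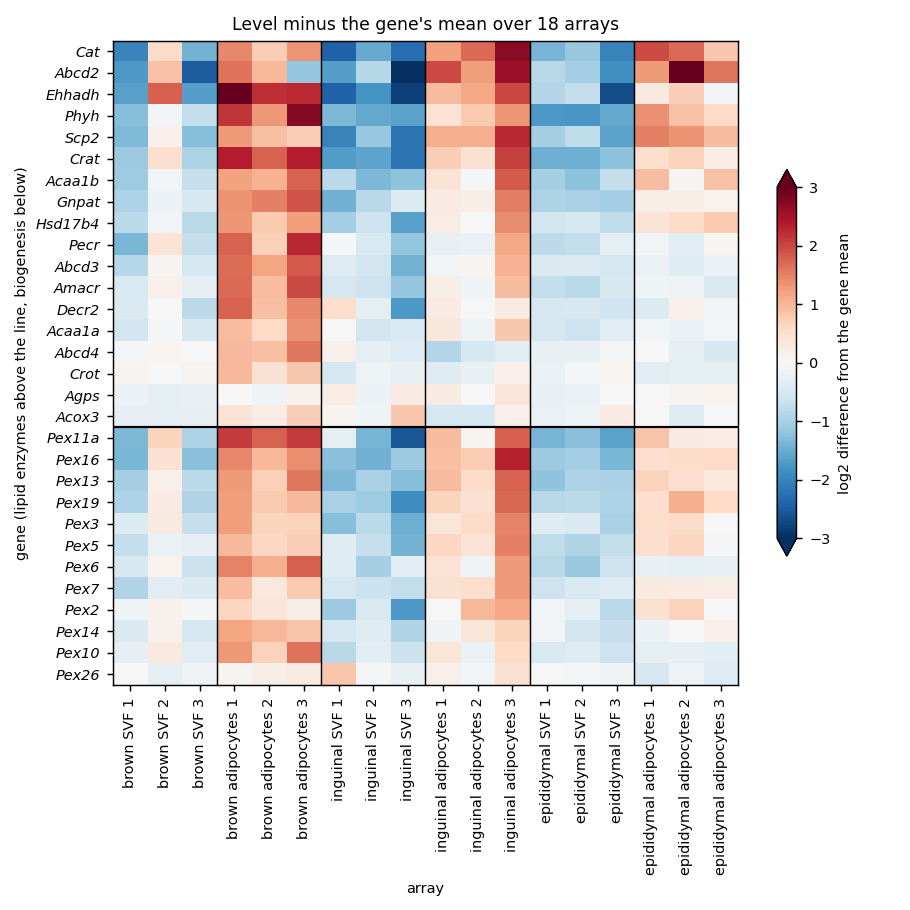
Heat map of the 30 tested genes (rows) over the 18 arrays (columns, 3 a group); colour is the level minus the gene's mean over all arrays, in log2 units, cut at 3 in either direction. The adipocyte columns are red for most genes, brown adipocytes most of all, inguinal adipocyte replicate 3 stands above its group and brown SVF replicate 2 stands above the other brown SVF arrays.

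Most of the list rose in adipocytes over SVF in brown and inguinal fat, and a smaller number did in epididymal fat. In brown fat 25 of 30 genes passed the test as higher (limma, Benjamini-Hochberg adjusted p below 0.05 over all genes), where 12.7% of all genes did. In inguinal fat 21 of 30 passed as higher, against 9.07% of all genes, and in epididymal fat 14 of 30, against 18%. No member passed as lower in any comparison, where 8.35%, 4.87% and 7.05% of all genes did so in brown, inguinal and epididymal fat. A total of 13 genes passed in all 3 depots: Pex5, Pex7, Pex11a, Pex13, Pex16, Pex19, Acaa1b, Cat, Crat, Gnpat, Hsd17b4, Phyh and Scp2. Another 6 passed in brown and inguinal fat, 6 in brown fat alone, 1 in inguinal fat alone and 1 in both white depots, while Pex26, Acox3 and Agps passed in none. The arrays of the 2 fractions did not overlap in brown fat for 29 of 30 genes, adipocytes higher, as was so for 30% of all genes. In these bulk fractions, fewer cells of a type and less RNA per cell cannot be told apart.

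**Figure D2:**
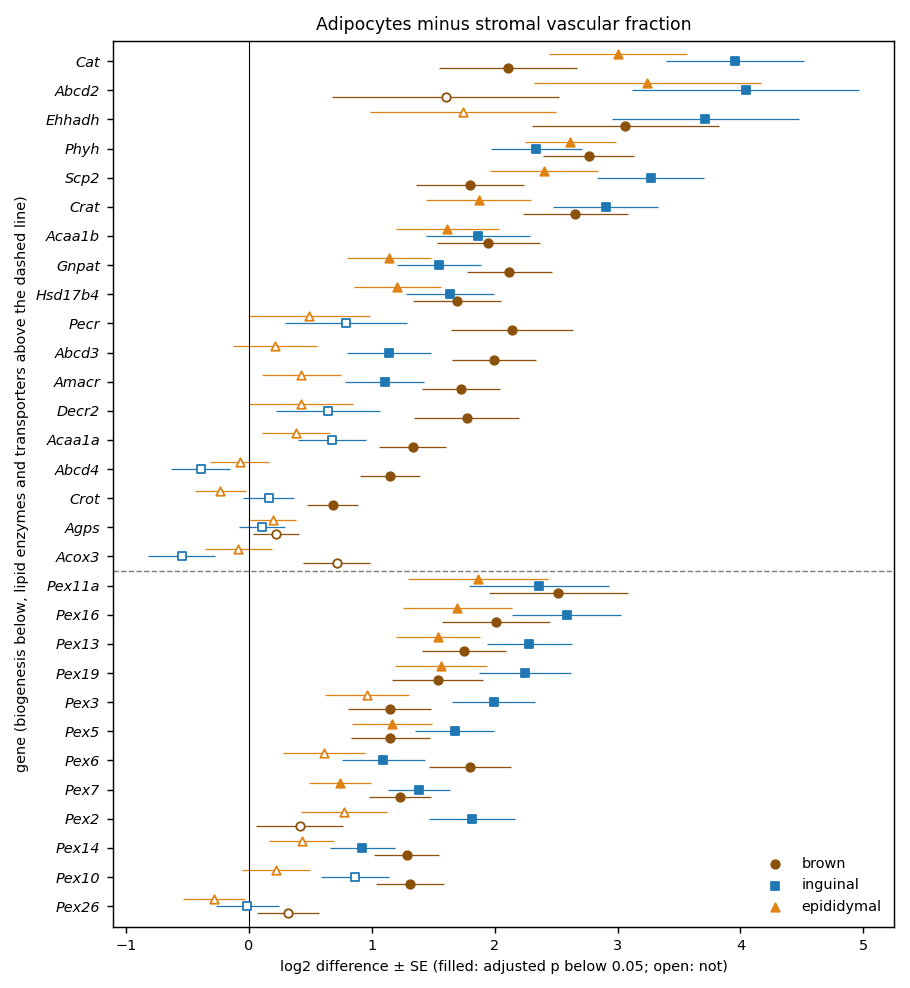
Difference in level between adipocytes and SVF (x axis, log2, with its standard error) for each tested gene (y axis) in brown, inguinal and epididymal fat; filled symbols have an adjusted p below 0.05. Biogenesis genes lie below the dashed line, lipid genes above it. Abcd2, Cat, Ehhadh and Scp2 reach the largest differences, and Pex26, Agps and Acox3 hold no filled symbol.

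The fraction comparison differs in how it was measured from depot to depot. All brown arrays and all SVF arrays were extracted with 1 version of the scanner software, and inguinal and epididymal adipocytes with another, on other slides and scan days. In inguinal and epididymal fat the fraction therefore cannot be told apart from the software version, slide or scan day. Brown fat has both fractions on the same slides. There all 30 genes were higher in adipocytes on slide 1 (2 arrays against 2) and all 30 on slide 2 (1 against 1). Of all genes, 11001 of 19217 were higher on slide 1 and 11100 of 19189 on slide 2. The median difference was 1.24 for biogenesis and 1.69 for lipid genes on slide 1, and 1.63 and 2.22 on slide 2, where the medians of all genes were 0.12 and 0.23.

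The peroxins that found the peroxisomal membrane were among the genes that rose in adipocytes. PEX3 and PEX16 sit in the membrane and receive new membrane proteins, which PEX19 brings from the cytosol. The level of Pex16 was 0.78, 2.60 and 0.89 in brown SVF and 3.60, 3.15 and 3.55 in brown adipocytes. It was 0.89, 0.70 and 1.06 in inguinal SVF against 3.04, 2.90 and 4.47 in inguinal adipocytes, and 1.06, 1.14 and 0.78 in epididymal SVF against 2.66, 2.69 and 2.72 in epididymal adipocytes. Every adipocyte array lay above every SVF array, brown SVF replicate 2 included, and inguinal adipocyte replicate 3 was the highest of all 18. The differences of Pex16 were 2.01 ± 0.44 (SE, adjusted p = 0.00464), 2.59 ± 0.44 (adjusted p = 0.00221) and 1.70 ± 0.44 (adjusted p = 0.0129) in brown, inguinal and epididymal fat, or 4.03-, 6.00- and 3.24-fold. Pex19 rose by 1.53 ± 0.37, 2.24 ± 0.37 and 1.56 ± 0.37 in the same order, with adjusted p of 0.0087, 0.00197 and 0.00845. Pex3 rose in brown (1.14 ± 0.34, adjusted p = 0.0262) and inguinal fat (1.99 ± 0.34, adjusted p = 0.00221), and its epididymal difference of 0.96 had an adjusted p of 0.0518. The other kept probe of Pex3 gave 1.72 in epididymal fat.

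The import machinery moved in the same direction. PEX5 and PEX7 are the receptors that bind cargo in the cytosol, and PEX13 and PEX14 form the docking site at the membrane. Pex13 stood at 2.25, 3.39 and 2.43 in brown SVF and 4.52, 3.97 and 4.84 in brown adipocytes, at 1.91, 2.29 and 1.96 in inguinal SVF and 4.20, 3.79 and 5.02 in inguinal adipocytes. In epididymal fat it went from 2.05, 2.32 and 2.27 in SVF to 3.93, 3.75 and 3.58 in adipocytes. Again no SVF array reached an adipocyte array. The differences were 1.75 ± 0.34 (adjusted p = 0.00241), 2.28 ± 0.34 (adjusted p = 0.00109) and 1.54 ± 0.34 (adjusted p = 0.00602). Another Pex13 probe gave 1.22 in brown but only 0.16 in inguinal and -0.13 in epididymal fat, so the white-fat rise of Pex13 was seen by 2 of its 3 probes. Pex5 rose by 1.15, 1.68 and 1.16 (adjusted p = 0.0188, 0.0043 and 0.0171) and Pex7, which brings in phytanoyl-CoA hydroxylase and the ether lipid enzyme AGPS, by 1.23, 1.38 and 0.74 (adjusted p = 0.00297, 0.00312 and 0.0421). Pex14 rose in brown (1.28 ± 0.26, adjusted p = 0.00317) and inguinal fat (0.92 ± 0.26, adjusted p = 0.0327), and its epididymal difference of 0.43 did not pass.

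The genes for recycling the receptor were less uniform. PEX2 and PEX10 are membrane RING ubiquitin ligases that mark PEX5 for release, PEX6 is an AAA ATPase that pulls it out, and PEX26 anchors PEX6 to the membrane. Pex10 was at -1.87, -1.34 and -1.96 in brown SVF and -0.33, -0.93 and 0.01 in brown adipocytes, with no overlap (1.31 ± 0.28, adjusted p = 0.00365). Its epididymal arrays lay between -2.25 and -1.86 in both fractions together, and its inguinal difference of 0.86 ± 0.28 had an adjusted p of 0.0501. Pex6 rose by 1.80 ± 0.33 in brown (adjusted p = 0.00166) and 1.09 ± 0.33 in inguinal fat (adjusted p = 0.0414), and without inguinal adipocyte replicate 3 the latter was 0.72 (adjusted p = 0.198). Pex26 passed in no depot: its SVF levels of -0.67, -0.97 and -0.84 in brown fat stood beside -0.59, -0.50 and -0.43 in brown adipocytes (0.32 ± 0.25, adjusted p = 0.428). In epididymal fat it went the other way, from -0.70, -0.70 and -0.77 in SVF to -1.15, -0.81 and -1.06 in adipocytes (-0.29 ± 0.25, adjusted p = 0.437). Both differences of Pex26 were within the range its standard error allows.

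The name Pex2 needs care on this array. The probe that the array calls Pex2 carries the RefSeq accession of Pex5l, a relative of the import receptor, and the RefSeq accession of Pex2 belongs to a probe under the older name Pxmp3. The opening 30 bases of both 60-base probes are shown because the name decides the sign of the result. Both lie on the minus strand of chromosome 3 in mouse build mm8, the first in chr3:33142209-33142268 and the second in chr3:5546240-5546299.
Probe named Pex2 on the array, accession of Pex5l: aacctcggtgacttggatgtcctcctgaga
Probe named Pxmp3 on the array, accession of Pex2: gaaaaccctggtttcaaatcacattggcaa

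Read by accession, Pex2 stood at -1.73, -1.09 and -2.35 in inguinal SVF and -0.61, 0.37 and 0.53 in inguinal adipocytes, and rose by 1.82 ± 0.35 there (adjusted p = 0.0044). In brown fat it was -0.75, -0.51 and -0.67 in SVF and 0.02, -0.26 and -0.45 in adipocytes, a difference of 0.41 ± 0.35 (adjusted p = 0.457). The Pex5l probe instead went from -2.88, -3.22 and -2.97 in brown SVF to -5.53, -4.27 and -4.34 in brown adipocytes, where 0 of 3 arrays were well above background. Brown SVF was thus at least 2.00-fold higher, taking the lowest signal well above background on an array as the bound (adjusted p = 0.0101 for the measured values). Had the array's name been followed, Pex2 would have counted as lower in brown adipocytes.

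Pex11a, which elongates and divides peroxisomes, had the largest fraction difference of the 12 peroxins in brown and epididymal fat. Its level was 1.70, 3.71 and 2.11 in brown SVF and 5.14, 4.80 and 5.14 in brown adipocytes. In inguinal fat it went from 2.75, 1.64 and 0.48 in SVF to 3.98, 3.13 and 4.84 in adipocytes, and in epididymal fat from 1.64, 1.78 and 1.43 to 3.89, 3.29 and 3.26. The fractions stayed apart in each depot. Brown SVF replicate 2 was the highest SVF array, and the gap between fractions was narrowest in inguinal fat, between SVF replicate 1 and adipocyte replicate 2. The rise was 2.52 ± 0.57 (5.73-fold, adjusted p = 0.00546), 2.36 ± 0.57 (5.13-fold, adjusted p = 0.0144) and 1.86 ± 0.57 (3.64-fold, adjusted p = 0.027). The probe of Pex11a had 10 usable spots on each array other than inguinal SVF replicate 1, which had 8. The standard deviation over the spots of an array was 0.0194 to 0.0749 log2 units, the highest being that of inguinal SVF replicate 1.

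**Figure D3:**
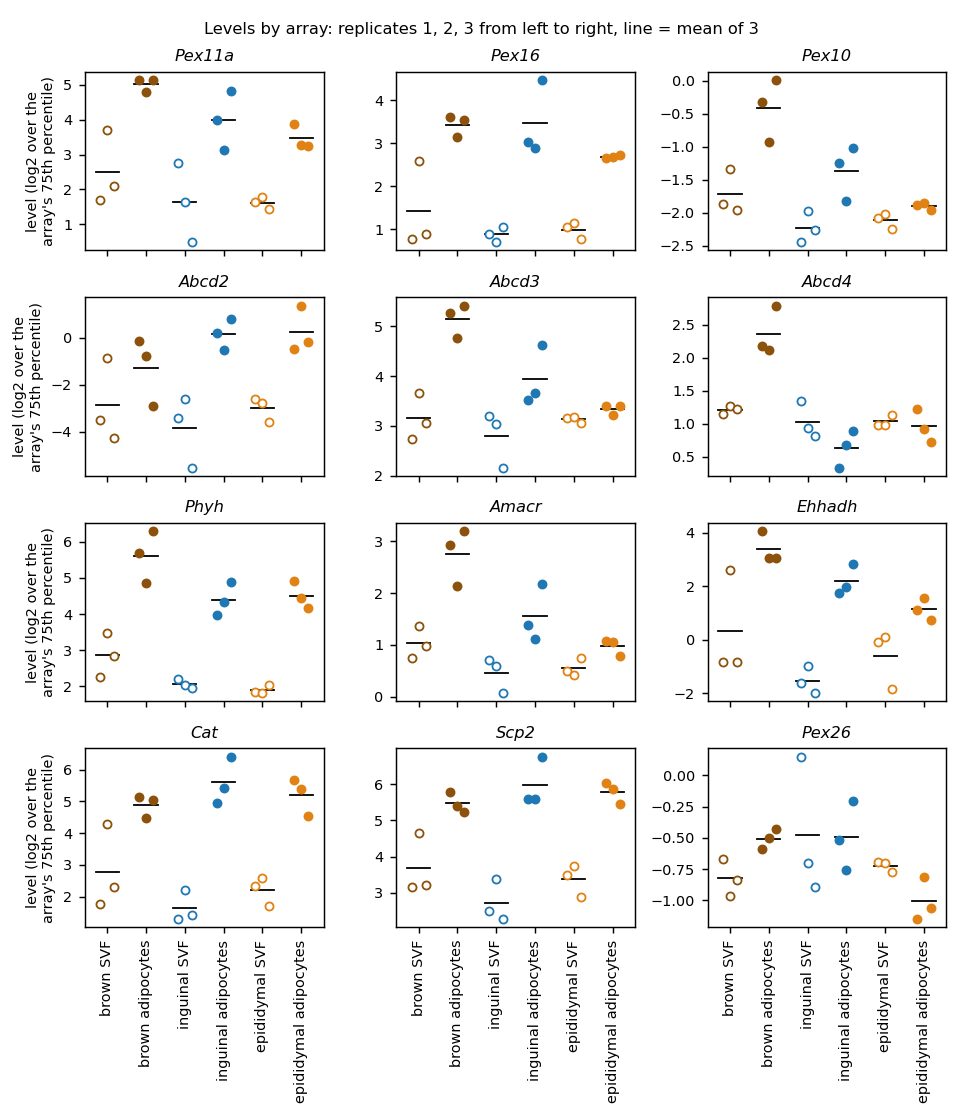
Level (y axis, log2 above the 75th percentile of the array) of 12 of the genes in the 6 groups (x axis); open circles are SVF arrays, filled circles adipocyte arrays, replicates 1 to 3 from left to right, and the line is the mean of 3. Pex11a, Pex16, Cat, Scp2 and Phyh are higher in adipocytes of every depot; Abcd4 stands out in brown adipocytes; Abcd2 is higher in white adipocytes than in white SVF; Pex26 barely moves.

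The genes of the ABCD family, among them carriers of fatty acyl groups into the organelle, passed the fraction test in different depots. ABCD2 and ABCD3 are membrane transporters of acyl-CoA, ABCD3 being tied to branched and dicarboxylic chains, and ABCD4 is a relative placed in human cells in the lysosome, where it handles vitamin B12. A probe of each is shown because Abcd2 passed the fraction test in both white depots and not in brown fat, and Abcd3 in brown and inguinal fat and not in epididymal fat. The Abcd2 probe covers chr15:91002454-91006007 and the Abcd3 probe chr3:121764347-121766028, both on the minus strand of mm8, spans longer than the 60 bases of a probe, so that each matches the genome in separate pieces.
Abcd2 probe: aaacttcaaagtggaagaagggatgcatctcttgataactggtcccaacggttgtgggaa
Abcd3 probe: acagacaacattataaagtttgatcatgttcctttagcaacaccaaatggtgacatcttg

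Abcd2 rose in the white depots. Its level was -3.43, -2.62 and -5.55 in inguinal SVF, where 2 of 3 arrays were well above background, and 0.23, -0.50 and 0.81 in inguinal adipocytes (4.04 ± 0.92, adjusted p = 0.011). It was -2.60, -2.79 and -3.59 in epididymal SVF and -0.49, 1.38 and -0.16 in epididymal adipocytes (3.24 ± 0.92, adjusted p = 0.0194). In both white depots every adipocyte array was above every SVF array. Brown fat overlapped: SVF at -3.49, -0.88 and -4.26, adipocytes at -0.14, -0.77 and -2.91 (1.60 ± 0.92, adjusted p = 0.255). Without inguinal adipocyte replicate 3 the adjusted p for inguinal fat was 0.0562. In epididymal fat Abcd2 did not pass without SVF replicate 2 or 3 or adipocyte replicate 2 (adjusted p of up to 0.069). Both Abcd2 probes gave the same sign in the fraction comparison of each depot, 3.39 being the inguinal value of the second. By the probe used, the fraction difference in brown fat minus that in inguinal fat was -2.44. Set against epididymal fat it was -1.64. Neither passed, so Abcd2 is not shown to differ between brown and white fat in this respect.

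Abcd3 and Abcd4 were higher in brown adipocytes. The brightest Abcd3 probe, not the one shown, read 2.74, 3.66 and 3.06 in brown SVF and 5.26, 4.77 and 5.42 in brown adipocytes, against 3.51, 3.66 and 4.63 in inguinal and 3.39, 3.23 and 3.40 in epididymal adipocytes. All brown adipocyte arrays exceeded all others. It rose by 2.00 ± 0.34 in brown (adjusted p = 0.000933) and 1.14 ± 0.34 in inguinal fat (adjusted p = 0.0386), with 0.21 ± 0.34 in epididymal fat. The probes of Abcd3 disagreed on epididymal fat: the probe shown gave 1.06 and the third 1.71, with adjusted p of 0.0434 and 0.04 in a fit over all probes. Abcd4 held between 0.33 and 1.35 in all arrays other than brown adipocytes, where it was 2.18, 2.12 and 2.79. It rose by 1.15 ± 0.24 over brown SVF (2.22-fold, adjusted p = 0.00357), while its inguinal and epididymal differences were -0.39 and -0.07.

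The steps of peroxisomal beta-oxidation covered a wide range. ACOX2 and ACOX3 are oxidases of branched chains and bile acid precursors, EHHADH and HSD17B4 are bifunctional enzymes for the middle steps, and ACAA1A, ACAA1B and SCP2 are thiolases. Ehhadh was at -0.83, 2.61 and -0.84 in brown SVF and 4.06, 3.03 and 3.04 in brown adipocytes. In inguinal fat it went from -1.62, -0.99 and -2.00 to 1.75, 1.96 and 2.82, and in epididymal fat from -0.07, 0.08 and -1.85 to 1.11, 1.56 and 0.72. No SVF array reached an adipocyte array of its depot, though brown SVF replicate 2 came near. The rise was 3.06 ± 0.76 (8.35-fold, adjusted p = 0.00962) in brown and 3.71 ± 0.76 (13.1-fold, adjusted p = 0.0059) in inguinal fat, and the epididymal difference of 1.74 ± 0.76 did not pass (adjusted p = 0.106). Without brown SVF replicate 2 the brown rise of Ehhadh was 4.21, and without brown SVF replicate 1 or 3 it did not pass (adjusted p of up to 0.0587).

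Hsd17b4 rose by 1.70, 1.64 and 1.21 in the 3 depots (adjusted p = 0.00362, 0.00877 and 0.0235). Scp2, whose gene also encodes a lipid transfer protein, was at 3.17, 4.65 and 3.21 in brown SVF and 5.78, 5.41 and 5.24 in brown adipocytes. Its inguinal levels were 2.49, 3.37 and 2.28 in SVF and 5.58, 5.59 and 6.76 in adipocytes, its epididymal levels 3.50, 3.74 and 2.89 and 6.02, 5.86 and 5.45. The fractions were apart everywhere, and the levels of white adipocytes overlapped or exceeded those of brown ones. Scp2 rose by 1.80 ± 0.44 (adjusted p = 0.00845), 3.27 ± 0.44 (adjusted p = 0.000555) and 2.40 ± 0.44 (adjusted p = 0.00235). Acaa1b rose by 1.95, 1.86 and 1.62 (adjusted p = 0.00425, 0.0106 and 0.013), whereas Acaa1a passed in brown fat alone (1.33 ± 0.27, adjusted p = 0.00315), with 0.68 in inguinal and 0.38 in epididymal fat.

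Acaa1a and Acaa1b are near copies on chromosome 9, and 1 of the 3 Acaa1a probes lists the accession of Acaa1b as well, so signal may be shared between them. An Acaa1a probe that lists Acaa1a alone is shown for this reason; it lies in chr9:119195223-119196443 on the plus strand of mm8.
Acaa1a probe: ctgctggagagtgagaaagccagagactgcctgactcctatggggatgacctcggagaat

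Over its 3 probes Acaa1a differed by 1.33 to 1.67 in brown, 0.68 to 1.11 in inguinal and 0.38 to 0.99 in epididymal fat. Acox3 passed no fraction test and differed by 0.72 ± 0.27 in brown fat (adjusted p = 0.077), -0.55 in inguinal and -0.09 in epididymal fat. Acox2 could not be tested, since its probe was well above background on 8 of 18 arrays and on all 3 of no group. Its level was -6.62, -4.54 and -6.73 in brown SVF and -3.63, -3.68 and -3.61 in brown adipocytes. The lowest signal well above background was -5.71, -5.92 and -5.84 on the brown SVF arrays and -3.50, -4.34 and -4.30 on the brown adipocyte arrays. With floors so unequal, these levels of Acox2 cannot be read as a difference between the fractions. The arrays well above background were 1 brown SVF, 2 brown adipocyte, 1 inguinal SVF, 2 inguinal adipocyte and 2 epididymal adipocyte arrays, and no epididymal SVF array. DECR2, a 2,4-dienoyl-CoA reductase, prepares unsaturated chains, and PECR is a trans-2-enoyl-CoA reductase. Their genes passed in brown fat alone, Decr2 by 1.77 ± 0.43 (adjusted p = 0.00792) and Pecr by 2.14 ± 0.50 (adjusted p = 0.00637).

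Phyh had the smallest adjusted p of the list in brown and in epididymal fat. Its product, phytanoyl-CoA hydroxylase, begins the alpha-oxidation of phytanic acid, and AMACR (alpha-methylacyl-CoA racemase) turns branched chains into the form the oxidases accept. Phyh was at 2.27, 3.46 and 2.84 in brown SVF and 5.70, 4.87 and 6.30 in brown adipocytes, and at 2.20, 2.03 and 1.96 in inguinal SVF and 3.98, 4.33 and 4.89 in inguinal adipocytes. In epididymal fat it was 1.84, 1.81 and 2.03 in SVF and 4.93, 4.44 and 4.16 in adipocytes. All adipocyte arrays were above all SVF arrays. Its differences were 2.76 ± 0.37 (6.79-fold, adjusted p = 0.000265), 2.34 ± 0.37 (5.06-fold, adjusted p = 0.00147) and 2.62 ± 0.37 (6.13-fold, adjusted p = 0.000797). Amacr rose by 1.73 ± 0.32 in brown (adjusted p = 0.00166) and 1.10 ± 0.32 in inguinal fat (adjusted p = 0.034), and its epididymal difference was 0.43. Without inguinal adipocyte replicate 3 the inguinal rise of Amacr had an adjusted p of 0.164, the highest of 4 arrays whose loss ended the call.

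Of the enzymes that hand products on, CRAT (carnitine acetyltransferase, which also works in mitochondria) moved far and CROT (carnitine octanoyltransferase) little. Crat was at 2.19, 3.78 and 2.33 in brown SVF and 5.62, 5.03 and 5.62 in brown adipocytes. Its inguinal arrays read 1.60, 1.69 and 1.06 in SVF and 4.01, 3.73 and 5.31 in adipocytes, its epididymal arrays 1.80, 1.81 and 2.03 and 3.81, 3.95 and 3.49. The fractions did not overlap in any depot. Crat rose by 2.66 ± 0.43 (6.31-fold, adjusted p = 0.00065), 2.90 ± 0.43 (7.48-fold, adjusted p = 0.000952) and 1.87 ± 0.43 (3.65-fold, adjusted p = 0.00683). By the probe used, Crot rose in brown fat alone, by 0.68 ± 0.21 (adjusted p = 0.0295). Its second probe gave 0.11 in brown but 0.86 in inguinal fat, where the probe used gave 0.16.

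Catalase, encoded by Cat, removes the hydrogen peroxide that the oxidases make. Its level was 1.75, 4.30 and 2.29 in brown SVF and 5.15, 4.46 and 5.05 in brown adipocytes. It was 1.30, 2.20 and 1.43 in inguinal SVF and 4.96, 5.43 and 6.42 in inguinal adipocytes, and 2.32, 2.57 and 1.71 in epididymal SVF and 5.67, 5.41 and 4.53 in epididymal adipocytes. Brown SVF replicate 2 lay just under the lowest brown adipocyte array, and the other SVF arrays were far below. The rise was 2.11 ± 0.56 (4.31-fold, adjusted p = 0.0148), 3.96 ± 0.56 (15.5-fold, adjusted p = 0.000816) and 3.00 ± 0.56 (8.02-fold, adjusted p = 0.00271). Without brown SVF replicate 2 the brown difference of Cat was 2.87, and it did not pass without brown SVF replicate 1 or 3 or brown adipocyte replicate 1 or 3, with an adjusted p of up to 0.0875.

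The 2 enzymes that open ether lipid synthesis differed. GNPAT, which acylates dihydroxyacetone phosphate, rose in all depots at the RNA level: Gnpat by 2.12 ± 0.34 (4.34-fold, adjusted p = 0.000661), 1.55 ± 0.34 (adjusted p = 0.00952) and 1.14 ± 0.34 (adjusted p = 0.0258). Agps, for the next enzyme, held between 1.21 and 1.84 on all 18 arrays, with differences of 0.22, 0.11 and 0.19, none past the threshold. The standard error of Agps, 0.19, was the smallest of the list. Far1, for the reductase that makes the fatty alcohol used by AGPS, fell in brown (-1.19 ± 0.29, adjusted p = 0.00821) and epididymal adipocytes (-1.01 ± 0.29, adjusted p = 0.0199). Far1 is no member and was named after its values were seen.

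Regulators that bind DNA are known for some of these genes: PPAR with RXR at a direct repeat of AGGTCA, and estrogen-related receptors at an extended form of it. The 250 bases before the gene start were searched on both strands in the RefSeq promoters of build GRCm38.p6, which held 24 of the 31 genes. The repeat known as DR1, AGGTCA and AGGTCA with 1 base of any kind between them, was found in none of the 24 and in 0.037% of all 27025 promoters, and TCAAGGTCA in none and in 0.366%. AGGTCA alone was found in 2 of 14 lipid genes, Cat and Scp2, in 0 of 10 peroxins and in 13.8% of all promoters. Each match to the direct repeat or to TCAAGGTCA would also hold AGGTCA. The GC box GGGCGG was found in 5 of 10 peroxins and 10 of 14 lipid genes, against 32.9% of all promoters. TATAAA was found in 3 of 10 peroxins (Pex14, Pex16 and Pex26) and 0 of 14 lipid genes, against 13.0%. A match is a run of letters, not a bound site. Promoters of Cat and Scp2, which hold AGGTCA, are shown with it in capitals, beside those of Pex11a and Pex16, peroxins that rose in all depots and lack it. They lie on the minus strand at chr2:103485154-103485403 (Cat), chr4:108118548-108118797 (Scp2) and chr7:79743132-79743381 (Pex11a), and on the plus strand at chr2:92374426-92374675 (Pex16).
Cat promoter: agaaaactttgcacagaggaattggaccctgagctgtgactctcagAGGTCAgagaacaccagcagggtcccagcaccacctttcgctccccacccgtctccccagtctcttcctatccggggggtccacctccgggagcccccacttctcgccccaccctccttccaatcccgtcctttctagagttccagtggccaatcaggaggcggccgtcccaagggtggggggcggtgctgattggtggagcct
Scp2 promoter: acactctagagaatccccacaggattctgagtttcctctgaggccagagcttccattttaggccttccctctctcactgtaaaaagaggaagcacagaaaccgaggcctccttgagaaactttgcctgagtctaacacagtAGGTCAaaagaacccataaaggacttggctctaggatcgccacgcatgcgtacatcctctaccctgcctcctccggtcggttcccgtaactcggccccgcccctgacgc
Pex11a promoter: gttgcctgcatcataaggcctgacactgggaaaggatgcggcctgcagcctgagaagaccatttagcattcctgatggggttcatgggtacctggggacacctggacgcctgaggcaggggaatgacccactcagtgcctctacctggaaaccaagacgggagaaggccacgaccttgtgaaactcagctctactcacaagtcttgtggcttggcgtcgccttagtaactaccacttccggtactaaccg
Pex16 promoter: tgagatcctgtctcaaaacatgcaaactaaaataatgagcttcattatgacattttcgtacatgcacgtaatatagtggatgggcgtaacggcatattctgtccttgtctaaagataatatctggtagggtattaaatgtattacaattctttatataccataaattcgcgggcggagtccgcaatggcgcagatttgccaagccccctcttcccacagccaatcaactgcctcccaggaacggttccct

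Both classes of members were higher in adipocytes by their medians. Of 12 peroxins, 10 rose in brown, 10 in inguinal and 6 in epididymal adipocytes, with median differences of 1.30, 1.75 and 0.87. Of 18 lipid genes, 15, 11 and 8 rose, with medians of 1.78, 1.34 and 0.81. The median over all 19217 genes was 0.15, 0.01 and 0.06. Lipid genes had the higher median in brown fat and peroxins in inguinal fat. The spread within lipid genes was wider, from 0.22 to 3.06 in brown and from -0.55 to 4.04 in inguinal fat. No test of one class against the other was made, and over all alternatives the medians ran from 1.09 to 1.50 and 1.40 to 2.23 in brown fat, 1.31 to 1.98 and 0.96 to 1.59 in inguinal fat, and 0.78 to 1.05 and 0.78 to 1.07 in epididymal fat, peroxins first. In inguinal fat the count fell from 21 to 15 without inguinal adipocyte replicate 3, and to 5, none of them peroxins, when only the inguinal arrays were fitted. The share of all genes called in either direction fell in the same fits, from 13.9% to 5.25% and to 1.30%. In epididymal fat it fell to 7 without SVF replicate 2, to 9 without SVF replicate 3 and to 8 and 9 without adipocyte replicates 1 and 3. Of all genes, 25.0% were called in the whole fit, and 13.4%, 17.0%, 12.1% and 15.6% in these.

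**Figure D4:**
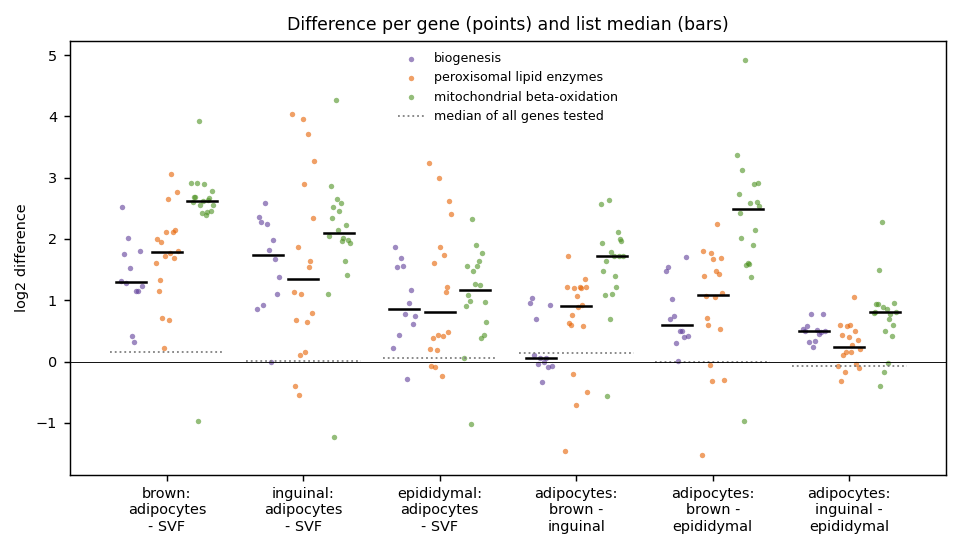
Difference in level (y axis, log2) of each gene (points) in 3 fraction and 3 adipocyte comparisons (x axis) for 12 peroxins, 18 peroxisomal lipid genes and 18 mitochondrial beta-oxidation genes; bars are list medians, dotted lines the median of all 19217 genes. Between brown and inguinal adipocytes the peroxin median (0.06) lies below that of lipid genes (0.91) and of mitochondrial genes (1.72).

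Adipocytes were also compared between depots. Brown adipocytes exceeded inguinal ones for 6 of 30 genes, against 6.37% of all genes (5.83% lower): Pex10 of the peroxins, and Abcd3, Abcd4, Amacr, Crot and Phyh of the lipid genes. The median was 0.06 for peroxins, 0.91 for lipid genes and 0.15 for all genes. The peroxin median changed sign under quantile normalization (-0.01), in the deposited matrix (-0.04) and without brown adipocyte replicate 1 (-0.02), inguinal adipocyte replicate 1 (-0.05) or inguinal adipocyte replicate 2 (-0.16), and it was 0.45 without inguinal adipocyte replicate 3. Brown adipocytes exceeded epididymal ones for 14 of 30, against 12.3% of all genes (16.4% lower). These were the same 6 and also Pex6, Pex14, Acaa1a, Crat, Decr2, Ehhadh, Gnpat and Pecr, with medians of 0.60 for peroxins, 1.09 for lipid genes and -0.01 for all genes. The 2 comparisons share the brown adipocyte arrays, so they do not count as separate evidence. Software version, slide and scan day cannot be told apart from depot in either. Markers of other cell types moved with both. Of 10 macrophage markers, 8 passed as lower in brown than in inguinal and 9 in brown than in epididymal adipocytes, and of 10 progenitor and fibroblast markers 6 and 8 did. The summed macrophage signal was 7.76 to 49.3 in brown, 38.1 to 278 in inguinal and 80.7 to 196 in epididymal adipocytes. The progenitor sum was 57.1 to 79.3, 96.0 to 383 and 189 to 285 in the same order. The part of these cells in the results was not tested. Without epididymal adipocyte replicate 3, which had the raised brown markers, 11 of 30 members passed as higher against epididymal adipocytes. The share of all genes in that fit is not given here, so the change cannot be read as particular to the members.

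Abcd4 had the smallest adjusted p in both, at 1.73 ± 0.24 over inguinal (3.31-fold, adjusted p = 0.00105) and 1.40 ± 0.24 over epididymal adipocytes (2.65-fold, adjusted p = 0.00114). The 3 brown adipocyte arrays of Abcd4 were above all 15 others, and both calls remained whichever array was left out. Amacr was at 2.92, 2.14 and 3.20 in brown, 1.39, 1.11 and 2.17 in inguinal and 1.08, 1.05 and 0.79 in epididymal adipocytes. Inguinal replicate 3 of Amacr overlapped the lowest brown array, and no epididymal array did. Its differences were 1.20 ± 0.32 (adjusted p = 0.026) and 1.78 ± 0.32 (adjusted p = 0.00154). Abcd3 was higher by 1.21 ± 0.34 (adjusted p = 0.0315) and 1.81 ± 0.34 (adjusted p = 0.00203), Pex10 by 0.95 ± 0.28 (adjusted p = 0.0372) and 1.49 ± 0.28 (adjusted p = 0.00191). Phyh was higher by 1.22 ± 0.37 (adjusted p = 0.044) and 1.11 ± 0.37 (adjusted p = 0.0362), with arrays that overlapped in both. Crot was higher by 0.89 ± 0.21 (adjusted p = 0.0136) and 1.05 ± 0.21 (adjusted p = 0.0027), but its second probe gave 0.29 and 0.02.

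**Figure D5:**
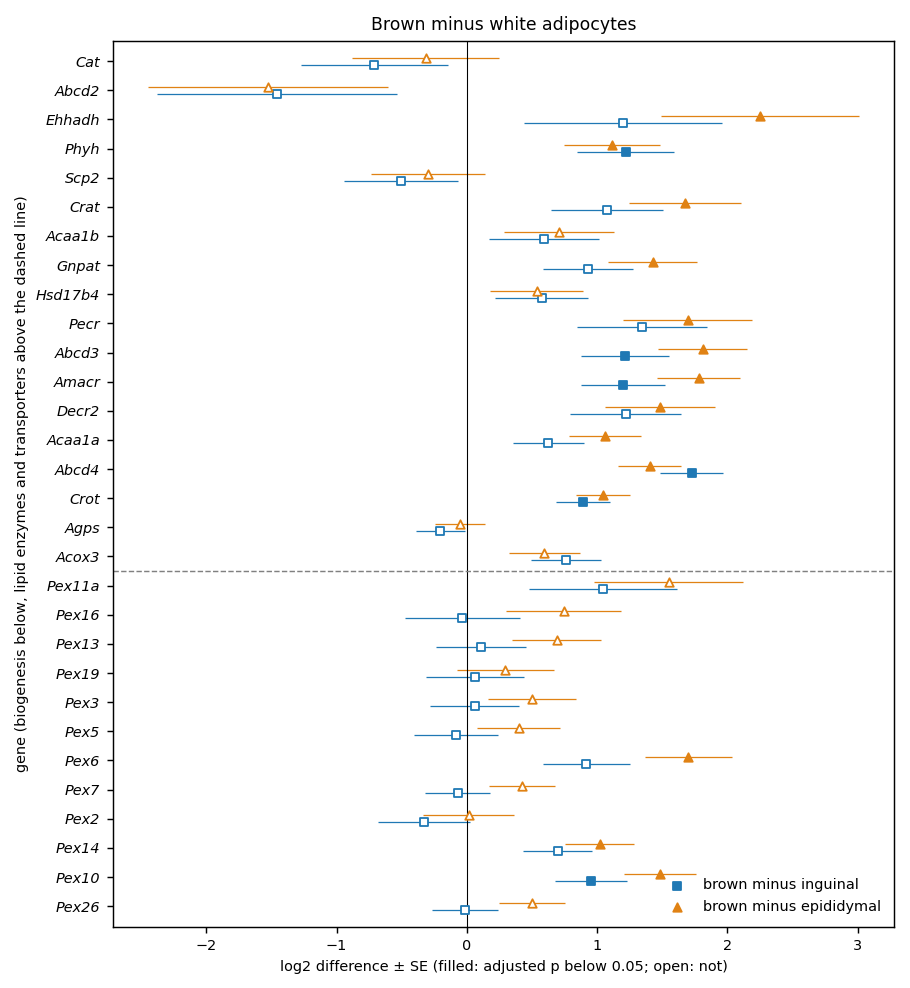
Difference in level (x axis, log2, with its standard error) of brown minus inguinal and brown minus epididymal adipocytes for each tested gene (y axis); filled symbols have an adjusted p below 0.05. Most lipid genes lie to the right of 0, Abcd2, Cat and Scp2 to its left with open symbols, and 8 of the 12 peroxins lie between -0.33 and 0.11 against inguinal adipocytes.

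A few members ran against this order without passing the test. Abcd2 was lower in brown adipocytes by -1.46 ± 0.92 against inguinal and -1.52 ± 0.92 against epididymal adipocytes, Cat by -0.71 and -0.31, and Scp2 by -0.50 and -0.30. Of the 6 peroxins that passed the fraction test in all depots, Pex13, Pex16 and Pex19 differed little between brown and inguinal adipocytes. By the probes used their differences were 0.11, -0.04 and 0.06. Pex11a, another of the 6, differed by 1.04 there, the largest value of the 12 peroxins, and did not pass. The other Pex13 probes gave 0.93 and 1.17 there, neither past the threshold (adjusted p = 0.122 and 0.0589 in a fit over all probes). By mean level, 21 of the 30 genes were highest in brown adipocytes, 7 in inguinal adipocytes, 1 in epididymal adipocytes (Abcd2) and 1 in inguinal SVF (Pex26), a ranking that does not ask whether neighbours differ. The share of all genes highest in each group is not given here, so this ranking cannot be read as particular to the members. The brown minus inguinal count depended on single arrays. It was 15 of 30, 3 peroxins and 12 lipid genes, without inguinal adipocyte replicate 3, where 18.9% of all genes were called in either direction. It was 1 without brown adipocyte replicate 1 or 3 or without inguinal adipocyte replicate 1 or 2, each time with Abcd4 past the threshold. Against epididymal adipocytes it fell from 14 to 9 without brown adipocyte replicate 3. The share of all genes is not given for the fits with 1 and 9 calls, so these falls cannot be read as particular to the members.

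No member passed between inguinal and epididymal adipocytes by limma's adjusted p (0 of 30 tested, against 7.64% of all genes in either direction), and 1 did at an unadjusted p below 0.05, Pex6 (0.78 ± 0.33, adjusted p = 0.161). Both groups had the same software version but shared no slide or scan day, so depot cannot be told apart from slide or scan day here. The peroxin median was 0.50, or 0.19 without inguinal adipocyte replicate 3, where the medians of all genes were -0.08 and -0.15. The SVF comparisons also gave 0 of 30: brown minus inguinal, where 2.27% of all genes were called, brown minus epididymal, 1.78%, and inguinal minus epididymal, 0.297%. At an unadjusted p below 0.05 the counts were 6, 1 and 0. The shares of all genes in this paragraph are at an adjusted p and do not apply to the unadjusted counts. The nearest were Crat (1.32 ± 0.43) and Pex2 (1.08 ± 0.35), both with an adjusted p of 0.129 between brown and inguinal SVF. Brown SVF replicate 2, with its raised Adipoq, is among these arrays.

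Whether the fraction difference itself depends on depot was asked with the interaction. It passed for Abcd4 alone, where the rise in brown fat exceeded the inguinal difference by 1.54 ± 0.34 (adjusted p = 0.0489, 0.864% of all genes called in either direction). Brown against epididymal fat gave 0 of 30 (2.02% of all genes; 10 of 30 at an unadjusted p below 0.05), with Abcd3 nearest at 1.79 ± 0.48 (adjusted p = 0.0692). The other Abcd3 probes gave 0.69 and 0.09 for that interaction. Inguinal against epididymal fat gave 0 of 30 (0.0781% of all genes; 1 of 30 unadjusted). The shares of all genes for these interactions are at an adjusted p and cannot be set against the unadjusted counts. A member that passed in brown and not in white fat is therefore not shown to differ between them. Abcd4 passed against inguinal fat, but that call was lost in 23 of 31 alternatives. Of these groups, only the white adipocytes had the other software version, slides and scan days. In interactions of brown with white fat, depot therefore cannot be told apart from these.

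Other genes of the same pathways, which are not in the list, were counted as well, to be read against the 12.7%, 9.07% and 18% of all genes that rose in brown, inguinal and epididymal fat. Of 10 further biogenesis and division genes, 5 rose and 1 fell (Pex5l) in brown adipocytes against SVF, 2 rose in inguinal and 2 in epididymal fat, the last a share near that of all genes. Their median differences were 0.67, -0.03 and 0.18 in the same order, against 1.30, 1.75 and 0.87 for the 12 peroxins of the list. Pex11g, a relative of Pex11a, rose in all 3 depots, by 2.08 ± 0.43, 2.35 ± 0.43 and 2.02 ± 0.43 (adjusted p = 0.00329, 0.00331 and 0.00479). Of 16 further lipid genes that could be tested, 11, 9 and 7 rose and 1, 0 and 1 fell, with medians of 1.82, 1.88 and 1.03. The acyl-CoA ligase Slc27a2 was higher in brown than in epididymal adipocytes by 7.11 ± 1.07 (adjusted p = 0.000492). Of 12 further matrix and membrane genes 9, 7 and 5 rose, among them the epoxide hydrolase Ephx2 at 2.77, 4.47 and 3.30.

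Ppara, the nuclear receptor known to drive peroxisomal beta-oxidation genes, rose with the list. Its level was -0.52, 0.70 and 0.02 in brown SVF and 3.82, 3.42 and 4.03 in brown adipocytes. The inguinal arrays of Ppara read -2.47, -2.69 and -4.98 in SVF and 0.64, -0.01 and 1.34 in adipocytes, the epididymal arrays -2.22, -3.11 and -3.33 and -0.59, -1.05 and 0.26. Brown adipocytes exceeded all other arrays, by 3.10 ± 0.59 over inguinal (adjusted p = 0.00499) and 4.21 ± 0.59 over epididymal adipocytes (adjusted p = 0.000316). Pparg, the adipocyte master regulator, differed by 0.50 and 0.74 in these comparisons without passing. Ppargc1a, a coactivator of thermogenic genes, passed against epididymal adipocytes alone (3.33 ± 0.81, adjusted p = 0.00841), as did Prdm16 (1.58 ± 0.35, adjusted p = 0.00472).

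Mitochondrial beta-oxidation genes had larger medians than either class, as the plot of lists by comparison shows. Of 18, 17 rose in brown, 17 in inguinal and 9 in epididymal adipocytes against SVF, where 12.7%, 9.07% and 18% of all genes did, with medians of 2.63, 2.10 and 1.16, and 1 fell in each, Cpt1a, named after its values were seen. Between adipocytes, 14 of 18 were higher in brown than in inguinal cells (6.37% of all genes) with a median of 1.72. Against epididymal cells 17 of 18 were higher in brown (12.3% of all genes) with a median of 2.48, and Cpt1a was lower. The medians of peroxisomal lipid genes in the latter comparisons, 0.91 and 1.09, lay between those of mitochondrial genes and peroxins.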

How the data were processed

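RNA of 18 samples was hybridised to one-colour (Cy3) Agilent mouse arrays, 3 arrays for each of 6 groups. Per the file headers, the deposited intensity values (processed signals) were background-subtracted and detrended by Feature Extraction, version 10.5.1.1 for brown and SVF arrays and 9.5.3.1 for inguinal and epididymal adipocytes. A deposited series matrix holds log2 values of 31201 probes whose array medians were 8.12 to 8.13, from a normalization not given in the sources used here. It served as an alternative. Its values were not centred by gene.

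Log2 processed signals were scaled to the 75th percentile of each array. A probe was kept where some group had it well above background on each of its 3 arrays (28595 of 41174), and the brightest kept probe stood for a gene. Names came from RefSeq through the accession (24375 probes), the symbol (6301) or a synonym (2426), and otherwise from the array (8072). Group means were fitted with limma 3.58.1 (lmFit, eBayes; prior degrees of freedom 2.98) in R 4.3.3 over all 18 arrays, adjusted by Benjamini-Hochberg over 19217 genes within each of 12 comparisons, threshold 0.05. The fit was tested on simulated data. Python 3.11.15 with pandas 2.3.3 and matplotlib 3.10.9 made summaries and figures. All members may be named; of other lists, up to 4 called genes with the largest difference per comparison, Ppara, Pparg, Ppargc1a, Prdm16 and Adipoq; exceptions are marked. The members and lists were chosen with earlier results of these data known.

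Alternatives were quantile normalization, normexp background correction (offset 50) of the median signal, 2 other filters on dim probes, dim signals raised to a floor, the mean of probes, the matrix, slide or scan day as a block, a replicate block, the compared arrays alone, and leaving out arrays. Normexp was planned on the mean signal, which 12 of the 18 arrays lack, so the median-signal form was added after the data were seen, as was Pex2 by its name on the array. Equal replicate numbers are not stated to share an animal, and correlations between same-numbered arrays were all above 0.1 in epididymal fat alone (0.138 to 0.482). Some items are not reported here.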

Additional observations from a re-analysis of the deposited data

Results flagged for a closer look

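The fraction difference of Abcd4 differed between depots by a test of the difference itself: brown fat exceeded inguinal fat by 1.54 (limma, adjusted p = 0.0489), with an adjusted p of up to 0.367 over the alternatives. In tests of brown against white fat, depot cannot be told apart from software version, slide or scan day. Crot was higher on all brown adipocyte arrays than on all brown SVF arrays (0.68), and lower on all epididymal adipocyte arrays than on all epididymal SVF arrays (-0.23). The difference between these depots was 0.91 for Crot with an adjusted p of 0.108. This rests on 1 of its 2 probes: the second gave 0.38 in epididymal fat and a depot difference of -0.27. Pex26 showed the same contrast, 0.32 in brown and -0.29 in epididymal fat, and its depot difference of 0.60 had an adjusted p of 0.35. Groups of 3 arrays are too small for a test of single arrays against their group.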

How the results depend on the processing

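The number of members called was compared with the main number in each of the 12 comparisons. With normexp on the median signal, chosen after seeing the data, it was 10 in place of 21 in inguinal fat between fractions, 2 in place of 6 for brown minus inguinal adipocytes, 6 in place of 14 for brown minus epididymal adipocytes, and 1 in place of 0 for brown minus inguinal SVF. The share of all genes called moved too, from 13.9% to 2.41%, 12.2% to 3.34%, 28.8% to 7.62% and 2.27% to 8.33%. With the compared arrays alone, which leaves fewer samples, it was 5 in inguinal fat, 1 for brown minus inguinal adipocytes and 2 for the brown minus epididymal interaction, where 1.30%, 6.76% and 6.86% of all genes were called. The deposited matrix gave 3 for brown minus inguinal adipocytes, 1 for brown minus inguinal SVF and 1 for the brown minus epididymal interaction. Scan day as a random block gave 3 for brown minus inguinal adipocytes. The brown minus inguinal interaction, 1 as reported, was 0 under quantile normalization, normexp, no filter on dim probes, the mean of probes, the replicate block, the compared arrays alone, the floor, and without inguinal SVF replicate 1 and epididymal adipocyte replicate 3 together. The cause was not tested. Where no share of all genes stands beside a count here or below, its change cannot be read as particular to the members.

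With Pex2 by its name on the array, chosen after seeing the data, that interaction gave 2 and the brown minus epididymal one 1, and Pex2 reversed to -1.69 (adjusted p = 0.0101) between brown fractions and -1.66 (adjusted p = 0.0103) between brown and epididymal adipocytes, since the probe is another gene's.

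Leaving out 1 array at a time gave 20 to 26 calls in brown, 15 to 22 in inguinal and 7 to 16 in epididymal fat, 1 to 15 for brown minus inguinal and 9 to 15 for brown minus epididymal adipocytes, and 0 to 1 for brown minus inguinal SVF and for the brown minus inguinal and brown minus epididymal interactions. Of the calls, 20 of 25, 15 of 21, 7 of 14, 1 of 6 and 9 of 14 remained whichever array was left out. The replicate block, whose numbers are not known to pair the arrays, gave 26, 20 and 14 calls in brown, inguinal and epididymal fat. Of single-gene values under the other alternatives, 4768 kept direction and side of the threshold, 121 lost and 29 gained a call, and 2 reversed.

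Fixed slide and scan day blocks could be fitted for brown fractions and SVF alone. The median of all genes moved most without a filter on dim probes, by 0.43 between epididymal fractions, and under normexp, by -0.42 between brown and inguinal adipocytes. The 3 arrays a group, dim probes such as Acox2 and the software version limit what can be said.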

Other observations

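The acyl-CoA oxidase gene Acox2, not tested above, had levels of -7.15 to -2.07 over the 18 arrays and was well above background on 8 of them.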
